A study of Mus musculus with 9 samples.

Results

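The genes described here are the clustered histone genes of the mouse, which encode the bulk of the histone proteins made when DNA is copied. They were taken as every gene row whose symbol begins with Hist1h, Hist2h, Hist3h or Hist4h, which gave 71 of the 46517 gene rows, with 70 different symbols because Hist2h2bb has a pair of entries. The letters of the symbol place 6 in the class of the linker histone H1, 20 in H2A, 20 in H2B, 12 in H3 and 13 in H4. In the GENCODE M21 annotation 4 of them are not protein-coding, namely Hist1h2aj, Hist1h2al and Hist3h2bb-ps, which are pseudogenes, and 1 of the entries of Hist2h2bb, which is a long noncoding RNA. The symbols of 56 begin with Hist1, those of 11 with Hist2 (chromosome 3) and those of 3 with Hist3 (chromosome 11), and Hist4h4 lies alone on chromosome 6. The annotation places 54 of the 56 on chromosome 13, of which 53 lie between 21715763 and 23934851 and Hist1h2al lies apart at 51202727. The back skin of mice at postnatal day 30, in the last stage of hair growth, was sorted into 4 populations for RNA sequencing. Suprabasal hair bulb cells (suprabasal HB), basal hair bulb cells (basal HB) and outer root sheath cells (ORS) gave 2 libraries each, and hair follicle stem cells of the bulge (HFSC) gave 3. All groups share the strain label Lhx2-GFP (CD1), a sex label that reads Mixed, and sorting on GFP, integrins α6 and β1, CD34, Sca-1 and P-cadherin. The extraction text instead names K14-H2BGFP mice, in which the keratin 14 promoter drives a fusion of histone H2B with GFP, so the source of the GFP is not settled. No transgene was analysed here, and whether reads of such a fusion were assigned to H2B members was not tested.

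Histones H2A, H2B, H3 and H4 form the core around which DNA is wound, and H1 binds where DNA enters and leaves it. Most clustered histone genes are transcribed in S phase, have no intron, and give mRNA that ends after a stem-loop bound by SLBP in place of a poly(A) tail. Some members also give polyadenylated mRNA in cells that differentiate or rest, and HFSC in the bulge are known to divide rarely while hair bulb cells divide fast. The libraries were prepared with an mRNA kit that selects poly(A), so mRNA that ends at the stem-loop is captured poorly and the levels below are not the cells' histone mRNA.

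The stem-loop was searched in the GENCODE M21 transcripts as 6 base pairs opening with GG and closed by a T and A pair around a loop of 4 bases opening with T, and it was found in 44 of the 69 members that this annotation holds. The most frequent forms are shown because they mark the end of the mRNA that the kit misses, with the paired stem in capitals and letters as DNA. The members named with them had a call in at least 1 comparison below. Calls of Hist1h2bk and Hist4h4 ended in several fits with 1 library left out. The opposite calls of Hist1h4m and Hist1h4n did not hold for the pair.
Hist1h1c, Hist1h2ag and 22 other members: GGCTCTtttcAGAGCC
Hist1h3c, Hist1h2bk and 4 other members: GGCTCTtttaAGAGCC
Hist1h4m, Hist1h4n, Hist4h4 and 4 other members: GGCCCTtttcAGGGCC
The first form was found in members of H1, H2A, H2B and H3, and the third in H4 members alone. In the annotated transcript of Hist1h1c another 840 bases follow the stem-loop and hold an AATAAA poly(A) signal, whereas 23 bases follow it in Hist1h2ag and 31 in Hist1h4n. Many annotated transcripts end at the stop codon, so a missing stem-loop says only that these letters are not in them.

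RefSeq promoter windows (GRCm38.p6, 250 bases before to 50 after the start) were matched to 61 members, which share 59 different sequences. The windows of the member with the most reads, of a member higher in ORS than in HFSC, and of a gene of a divergent pair are printed 5′ to 3′ along the gene's strand. Both genes of the pair, Hist1h2ag and Hist1h2bj, were called higher in ORS and in basal HB than in HFSC. In suprabasal HB against basal HB only Hist1h2ag was called. Capitals mark the TATA box (searched as TATAAA), the CCAAT box, the octamer known from H2B promoters (ATTTGCAT) and the AC box known from H1 promoters (AAACACA), each on either strand.
Hist1h1c (H1f2), chr13:23738557-23738856, plus strand: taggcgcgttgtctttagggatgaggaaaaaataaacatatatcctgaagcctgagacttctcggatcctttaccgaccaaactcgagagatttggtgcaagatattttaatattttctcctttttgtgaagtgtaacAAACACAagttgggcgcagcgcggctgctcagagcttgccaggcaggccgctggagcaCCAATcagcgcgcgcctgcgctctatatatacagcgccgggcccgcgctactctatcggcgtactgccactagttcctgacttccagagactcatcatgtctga
Hist1h3c (H3c3), chr13:23745472-23745771, minus strand: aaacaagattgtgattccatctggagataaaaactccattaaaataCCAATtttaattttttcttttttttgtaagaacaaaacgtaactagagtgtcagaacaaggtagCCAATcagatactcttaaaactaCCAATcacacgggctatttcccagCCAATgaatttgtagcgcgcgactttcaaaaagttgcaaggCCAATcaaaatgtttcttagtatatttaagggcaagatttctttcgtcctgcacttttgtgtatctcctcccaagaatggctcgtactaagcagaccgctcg
Hist1h2ag (H2ac11), chr13:22042900-22043199, minus strand: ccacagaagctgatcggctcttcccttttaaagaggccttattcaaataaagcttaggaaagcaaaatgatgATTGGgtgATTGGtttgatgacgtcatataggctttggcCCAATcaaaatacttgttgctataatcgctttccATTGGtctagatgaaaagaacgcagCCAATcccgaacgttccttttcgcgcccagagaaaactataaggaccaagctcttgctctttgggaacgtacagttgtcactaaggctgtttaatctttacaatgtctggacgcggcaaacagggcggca
The Hist1h2ag window shares 252 of its bases, on the other strand, with the window of Hist1h2bj (H2bc11), the H2B gene transcribed away from it. CCAAT or its complement stood in 84.7% of the 59 windows and in 37.4% of all 32851 promoters of the table. The TATA box stood in 59.3% and 13.6%, the octamer in 20.3% and 1.74%, and the AC box in 13.6% and 7.18%. The AC box stood in 5 of 6 H1 windows and CCAAT in 3 of 12 H4 windows. A match is a description of letters and not a site of binding.

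Total expected counts per library were 25098237 to 29902799 in HFSC and 45438637 to 88596741 in the other populations, so low members are measured least precisely in HFSC. Members took 0.0180% to 0.0270% of the counts of a library. Between 67 and 71 members had at least 1 count in the suprabasal HB, basal HB and ORS libraries, and 54 to 59 had in the shallower HFSC libraries. Summed normalised CPM of 6 HFSC markers was 328 to 572 in suprabasal HB, 760 to 1078 in basal HB, 4691 to 5797 in ORS and 4789 to 5298 in HFSC. In ORS most of that sum was Lhx2, at a mean of 3172 CPM in ORS and 1349 CPM in HFSC, while the other 5 were lower in ORS than in HFSC. The 5 keratins taken as ORS markers went against their label, at 3251 to 3878 CPM in ORS and 9056 to 11396 CPM in HFSC. The 5 hair matrix markers taken for basal HB summed to 1295 to 1478 CPM in suprabasal HB and 1664 to 1717 in basal HB. They summed to 833 to 837 CPM in ORS and 384 to 436 in HFSC. Among them Lef1 and Shh had higher means in suprabasal HB than in basal HB. The 6 measured suprabasal markers summed to 3387 to 4011 CPM in suprabasal HB and 4333 to 4644 CPM in basal HB. Their sum was 650 to 1194 CPM in ORS and 563 to 889 in HFSC. Tchh had a mean of 625 CPM in suprabasal HB and 4005 CPM in basal HB, and the other 5 were higher in suprabasal HB than in basal HB. Melanocyte markers (7 genes, none at 0) summed to 14705 to 15079 CPM in suprabasal HB, 861 to 1288 in basal HB, 64.6 to 313 in ORS and 80.1 to 142 in HFSC. Markers of dermal papilla and fibroblasts summed to 1348 to 3468, 1587 to 2033, 716 to 1159 and 1521 to 2767 CPM in suprabasal HB, basal HB, ORS and HFSC, those of immune cells to 31.3 to 84.7 CPM over all libraries (1 of 6 genes, Cd3e, at 0 in suprabasal HB) and those of endothelium and blood to 37.5 to 142. The part of these other cells in the histone values was not tested, and in bulk samples fewer cells of a type and less RNA per cell cannot be told apart.

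Reads were concentrated in a few members. Hist1h1c, Hist1h2bc and Hist3h2a together held 47.3% to 53.8% of the members' counts in suprabasal HB, 59.4% to 60.7% in basal HB, 47.1% to 49.0% in ORS and 70.4% to 74.9% in HFSC. Each of the 3 has an extended gene model, that is, at least 250 bases in the authors' model length beyond the coding sequence. Of the 71 members 15 have an extended model, 50 have a short one and 6 have no coding length, and the members nearest the limit are Hist1h2bc with 355 bases beyond the coding sequence and Hist3h2ba with 233. The split follows the authors' gene models, so a longer transcript missing from a model, such as that of Hist1h1d, was not counted.

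The extended and the short models differed in where they were high. The 50 short models summed to 65.6 and 83.7 CPM in suprabasal HB, 52.7 and 54.4 in basal HB, 63.3 and 53.5 in ORS, and 25.7, 30.8 and 30.3 in HFSC. The HFSC libraries were thus the lowest, with no overlap with any other population. The 15 extended models summed to 174 and 134 CPM in suprabasal HB, 173 and 168 in basal HB, 130 and 116 in ORS, and 177, 232 and 183 in HFSC, with the ORS libraries the lowest. That order rests on Hist1h1c and Hist1h2bc. Without this pair, left out after the data were seen, the other 13 summed to 61.1 and 45.8 CPM in suprabasal HB, 47.5 and 42.3 in basal HB, 58.2 and 49.5 in ORS, and 44.2, 51.2 and 45.9 in HFSC, and the populations overlapped. By mean CPM, 1 of the 15 was lowest in suprabasal HB, 2 in basal HB, 4 in ORS and 8 in HFSC. Over all 71 members the sum was 239 ± 17.4 CPM in suprabasal HB, 237 ± 3.31 in basal HB and 190 ± 16.1 in ORS (SD, n = 2 each), and 235.5 ± 31.5 in HFSC (SD, n = 3). In TPM, which divides by gene length and carries no TMM scaling, the same sum was 513 ± 39.7, 556 ± 39.4 and 452 ± 27.3 in suprabasal HB, basal HB and ORS (SD, n = 2 each), and 351.5 ± 17.4 in HFSC (SD, n = 3), which puts ORS above HFSC. The median log2 fold change of ORS over HFSC over all genes was also higher on that scale, at 0.13 by limma on TPM with a pseudocount of 1, against -0.05 by edgeR, and the cause of the changed order was not tested. By mean CPM, 29 of the 50 short models were highest in suprabasal HB, 14 in ORS, 5 in basal HB and 2 in HFSC, while 5, 3, 3 and 4 of the 15 extended models were highest in those populations.

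**Figure D1:**
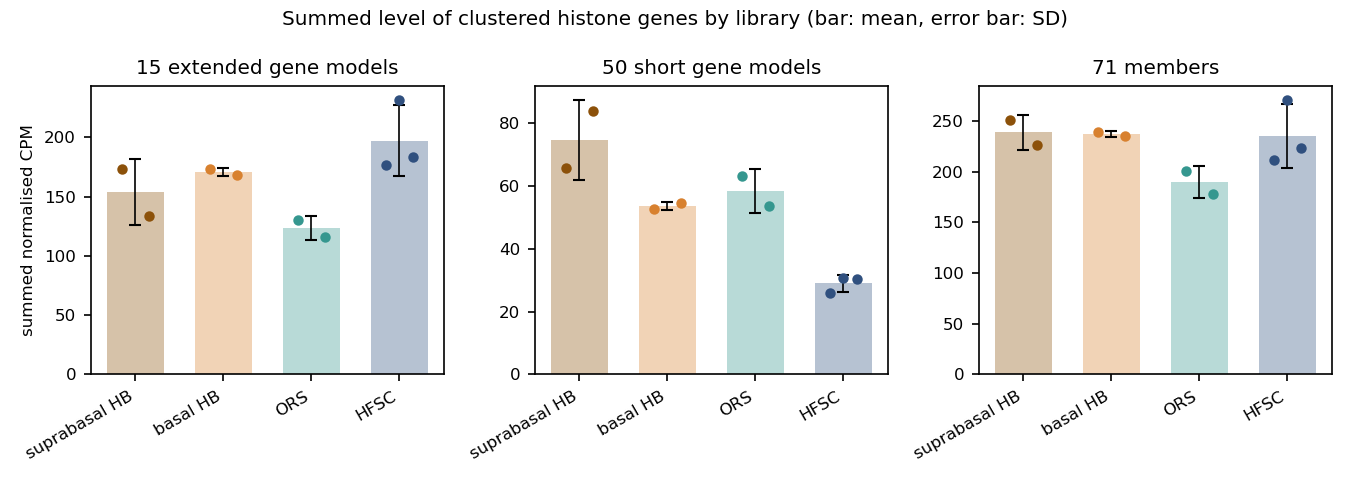
Summed normalised CPM (vertical axis, from 0) of the 15 members with extended gene models, the 50 with short models and all 71, for suprabasal HB, basal HB, ORS and HFSC. Points are libraries, bars means and error bars SD; short models sit at 25.7 to 30.8 in HFSC and at 52.7 or more elsewhere, while extended models are lowest in ORS, where Hist1h1c and Hist1h2bc are low.

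Genes were compared between populations with edgeR's quasi-likelihood test over all 20491 genes that passed the filter on low counts, which 68 of the 71 members did (not Hist2h2ab, Hist1h1t and Hist1h2aa). In ORS against HFSC, 21 members (30.9%) were higher and 6 (8.82%) lower, where 18.1% of all genes tested were higher and 23.8% lower. Their median log2 fold change was 1.06, against -0.05 over all genes. Short models gave 18 of the higher and 3 of the lower calls among 47 tested, with a median of 1.32, and extended models gave 2 and 3 among 15, with a median of 0.35. In 6 of the members a population was at 0, where fitted folds depend on the prior count, and with those at their lower bounds the median over members was 1.01.

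In basal HB against HFSC, 20 members (29.4%) were higher and 3 (4.41%) lower, where 22.8% of all genes were higher and 26.1% lower. The median was 0.79, against -0.00 over all genes, with 16 higher and 2 lower among 47 short models and 2 higher and 1 lower among 15 extended ones. With either basal HB replicate left out, that population has 1 library. Members and all genes then had fewer calls in both directions. The members' share of higher calls lay near that of all genes in both fits, while their share of lower calls stayed under it. In basal HB against ORS, 5 were higher and 5 lower (7.35% each), where 15.8% of all genes were higher and 14.7% lower, and the median was -0.15, against -0.04. Leaving out any 1 library gave fewer lower calls there, in the members and in all genes. Without basal HB replicate 1, which leaves 1 library in that population, fewer were higher in both as well. In suprabasal HB against basal HB, 3 were higher (4.41%) and none lower by edgeR (3 at an unadjusted p under 0.05, 1 by the DESeq2 Wald test), where 13.1% of all genes were higher and 14.8% lower, with a median of 0.40, against 0.00. Leaving out either basal HB replicate or suprabasal HB replicate 2 leaves 1 library in that population. Members and all genes then both had fewer higher calls. The melanocyte markers given above were far higher in suprabasal HB than in basal HB, and their part in these calls was not tested. These comparisons share populations, so their calls are not independent of one another. Left out 1 library at a time, 12 of the 21 members higher in ORS and 8 of the 20 higher in basal HB than in HFSC were called in all 9 fits.

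Among the H1 genes, the member with the most reads moved against the short models. Hist1h1c, which encodes the linker histone H1.2 (ENSMUSG00000036181, mm10 chromosome 13, 23738808 to 23740367, plus strand, 1 exon), had 54.2 and 47.5 CPM in ORS, against 93.3, 136 and 99.3 CPM in HFSC. Both ORS libraries were below the HFSC libraries, a log2 fold change of -1.11 (SE 0.18, adjusted p = 0.0013). It had 90.1 and 88.4 CPM in basal HB, a log2 fold change of 0.81 over ORS (SE 0.19, adjusted p = 0.010), and -0.30 over HFSC (adjusted p = 0.18). The rise over ORS had adjusted p = 0.067 without ORS replicate 2 and 0.059 without basal HB replicate 1. In suprabasal HB it had 75.8 and 59.6 CPM, below both basal HB libraries, with a log2 fold change of -0.40 that did not pass (SE 0.19, adjusted p = 0.15).

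Hist1h1b, which encodes H1.5 and has a short model, ran the other way. It had 2.42 and 2.04 CPM in ORS and 1.48 and 1.40 in basal HB, against 0.80, 0.80 and 0.69 CPM in HFSC, with no overlap. Its log2 fold changes were 1.55 for ORS (SE 0.29, adjusted p = 0.0030) and 0.92 for basal HB over HFSC (SE 0.29, adjusted p = 0.029). The basal HB call ended when basal HB replicate 1 (adjusted p = 0.12) or basal HB replicate 2 (0.089) was left out. Hist1h1d and Hist1h1e, which encode H1.3 and H1.4, and Hist1h1a, which encodes H1.1, passed the test in none of the 4 comparisons, with adjusted p of 0.25 to 0.96. Hist1h1d stood at 1.88 ± 0.0962 CPM in suprabasal HB, 1.66 ± 0.00849 in basal HB and 1.83 ± 0.0461 in ORS (SD, n = 2 each), and at 1.70 ± 0.222 in HFSC (SD, n = 3). Hist1h1t, a testis H1, was under the filter in all populations.

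**Figure D2:**
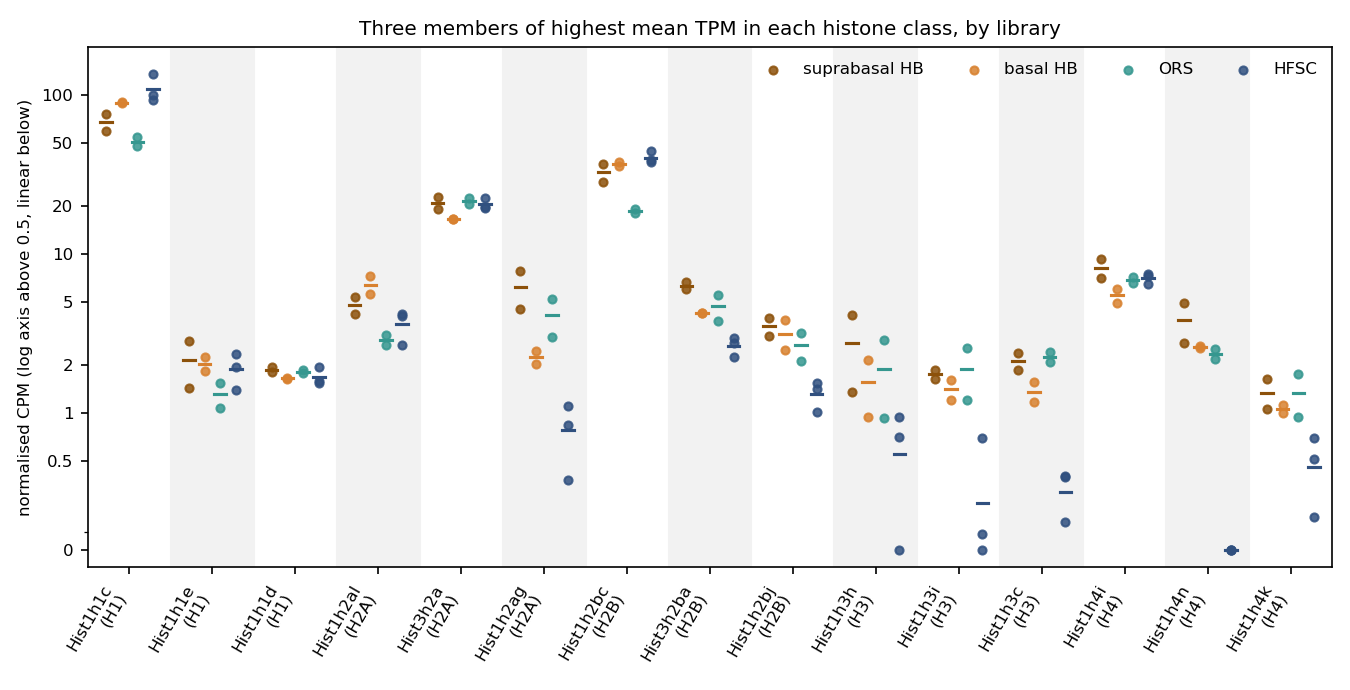
Normalised CPM by library of the members with the highest mean TPM in each histone class, 3 per class, on an axis that is logarithmic above 0.5 and linear below. Points are libraries and lines population means, in the order suprabasal HB, basal HB, ORS and HFSC; Hist1h1c and Hist1h2bc are lowest in ORS, and Hist1h2ag, Hist1h3c and Hist1h4n are lowest in HFSC.

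Many core histone genes are copies of one another, which limits what a count per gene can say. Of the 69 members in the annotation, 44 share more than 50% of their 25-base words with other members or genes, and 24 fall into 6 groups linked by at least 80% shared words. RSEM divides reads that fit several copies by its estimate, so values of single copies in these groups are uncertain. Sums of a group do not depend on that division within the group. Members outside the groups can share many words too, such as Hist1h4k (90.6%) and Hist1h2bj (70.4%), and their values carry the same uncertainty. The sums of groups were added after the data were seen and were fitted as units in place of their members.

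The largest group holds 9 H2A genes of the Hist1 cluster (Hist1h2ad, Hist1h2af, Hist1h2ag, Hist1h2ah, Hist1h2ai, Hist1h2aj, Hist1h2an, Hist1h2ao and Hist1h2ap), of which Hist1h2aj is annotated as a pseudogene. It summed to 13.9 and 20.3 CPM in suprabasal HB, 8.0 and 9.73 in basal HB, 14.3 and 10.9 in ORS, and 1.94, 1.88 and 2.34 in HFSC. The HFSC libraries were the lowest of the 4 populations and did not overlap with the others. The log2 fold change was 2.63 in ORS over HFSC (SE 0.22, adjusted p = 7.3e-05, 6.17-fold), 2.12 in basal HB over HFSC (SE 0.22, adjusted p = 9.6e-05) and 0.95 in suprabasal HB over basal HB (SE 0.23, adjusted p = 0.016). In basal HB over ORS it was -0.51 (SE 0.23), which did not pass (adjusted p = 0.13).

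Among its copies, Hist1h2ag (chromosome 13, 22042460 to 22042944, minus strand) had 4.51 and 7.86 CPM in suprabasal HB, 2.06 and 2.47 in basal HB, 5.24 and 3.0 in ORS, and 1.11, 0.84 and 0.39 in HFSC. It was 5.22-fold higher in ORS than in HFSC (adjusted p = 0.0025), 2.86-fold higher in basal HB than in HFSC (adjusted p = 0.018) and 2.73-fold higher in suprabasal HB than in basal HB (adjusted p = 0.039). The last call ended without suprabasal HB replicate 2 (adjusted p = 0.24), basal HB replicate 1 (0.21), basal HB replicate 2 (0.13) or HFSC replicate 2 (0.059), and the basal HB call over HFSC ended without basal HB replicate 1 (0.053) or 2 (0.089). Hist1h2ah was at 0 in all 3 HFSC libraries and had 2.23 and 1.66 CPM in ORS, at least 16.6-fold higher, and 1.08 and 0.73 CPM in basal HB, at least 7.74-fold higher, against a floor of 3 counts per library. It was also called 2.15-fold lower in basal HB than in ORS (adjusted p = 0.048), a call that none of the 9 fits with 1 library left out kept (up to 0.25, without basal HB replicate 2). Hist1h2af and Hist1h2aj were also at 0 in HFSC, and were at least 5.44-fold and 3.76-fold higher in ORS and at least 3.11-fold and 2.02-fold higher in basal HB. For Hist1h2af the basal HB call rests on basal HB replicate 2 and ended without it (adjusted p = 0.095), with a lower bound of 1.57-fold. Hist1h2ao, at 0 in HFSC and in basal HB, reached 0.228 and 0.0688 CPM in ORS and 0.136 and 0.211 CPM in suprabasal HB, at least 3.93-fold higher in suprabasal HB than in basal HB, and at least 3.36-fold lower in basal HB than in ORS. At 0 elsewhere, Hist1h2ao passed the filter only through ORS and suprabasal HB libraries, where it was then called higher, so its calls are no independent evidence. Only 8 of the 9 fits with 1 library left out tested it. Leaving out a basal HB or a suprabasal HB library, which leaves 1 in that population, ended both calls. The replicate block and the DESeq2 Wald test also ended both (adjusted p of 0.059 to 0.066). Hist1h2ai was 5.55-fold higher in basal HB than in HFSC (adjusted p = 0.022), a call that ended without HFSC replicate 1 (0.058) or basal HB replicate 2 (0.12). All of these are called by the fit per copy and fall under the uncertainty of shared reads.

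A second H2A group joins Hist2h2aa1 and Hist2h2aa2, which share 100% of the words of the one with fewer, with Hist1h2al (84.1% shared), which the annotation calls a processed pseudogene. It summed to 9.30 and 8.45 CPM in suprabasal HB, 11.8 and 10.3 in basal HB, 5.37 and 5.48 in ORS, and 7.73, 4.59 and 6.32 in HFSC. Basal HB was above ORS by a log2 fold change of 1.03 (SE 0.23, adjusted p = 0.0090) and above HFSC by 0.83 (SE 0.21, adjusted p = 0.010), while ORS over HFSC was -0.20 (adjusted p = 0.47). Per copy, Hist1h2al and Hist2h2aa2 were 2.22-fold and 2.02-fold higher in basal HB than in ORS (adjusted p = 0.011 and 0.013). The first call ended without basal HB replicate 1 (0.093), and the second without ORS replicate 1 (0.065), basal HB replicate 1 (0.066) or basal HB replicate 2 (0.073). Hist2h2aa2 was also called 1.71-fold lower in ORS than in HFSC (adjusted p = 0.026), which 7 of 9 fits with 1 library left out did not keep, with adjusted p of up to 0.12 (without ORS replicate 1).

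Outside these groups, Hist1h2ae had 1.40 and 1.43 CPM in ORS and 1.27 and 1.39 in basal HB, against 0, 0.303 and 0.137 CPM in HFSC. It was 9.68-fold higher in ORS (adjusted p = 0.0076) and 9.10-fold higher in basal HB (adjusted p = 0.0071) than in HFSC. Hist3h2a (chromosome 11, 58954685 to 58956830, plus strand), which has an extended model, was nearly level, at 22.7 and 19.2 CPM in suprabasal HB, 16.6 and 16.6 in basal HB, 22.6 and 20.8 in ORS, and 19.6, 22.7 and 19.9 in HFSC. Its basal HB libraries were the lowest, 1.30-fold below ORS (adjusted p = 0.048) and 1.25-fold below HFSC (adjusted p = 0.04995). With DESeq2 size factors those were adjusted p = 0.066 and 0.088, and 8 of 9 fits with 1 library left out ended each call, so it rests at the threshold. Its annotated span overlaps Trim17 on the same strand and Gm44313 on the other, and whether reads of those genes were counted in it was not tested.

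**Figure D3:**
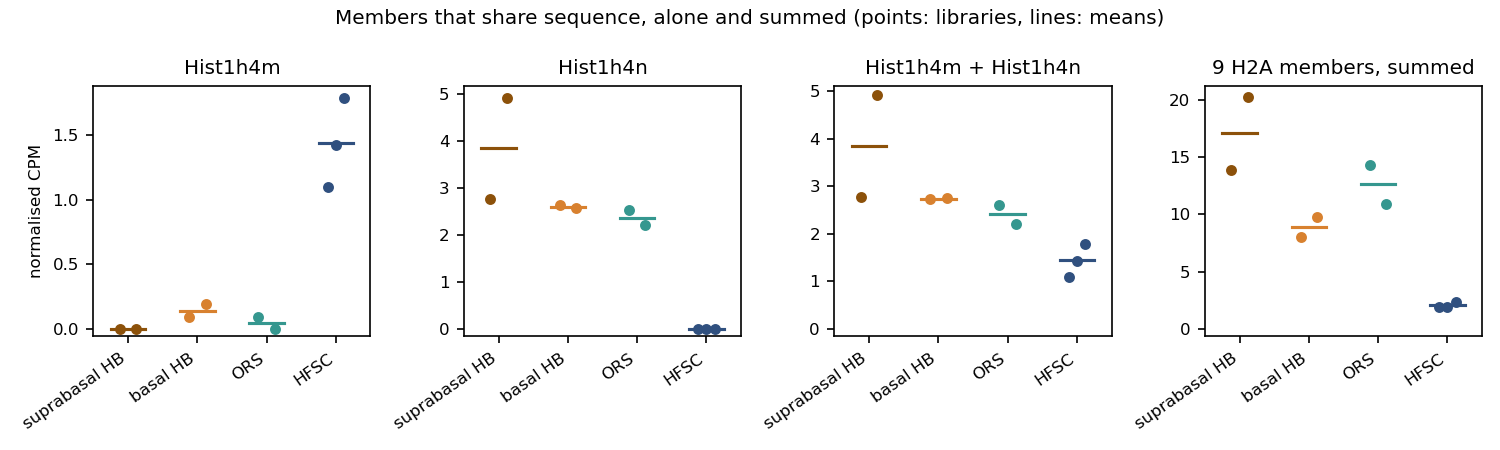
Normalised CPM by library of Hist1h4m, of Hist1h4n, of their sum and of the summed 9 near-identical H2A members, with points for libraries and lines for means of suprabasal HB, basal HB, ORS and HFSC. Hist1h4n is at 0 in HFSC where Hist1h4m is highest, while the H2A sum is 1.88 to 2.34 in HFSC and at least 8.0 elsewhere.

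Among the H2B genes, Hist1h2bc moved as Hist1h1c did. It lies on chromosome 13 (ENSMUSG00000018102, 23684199 to 23692908, plus strand), and its annotated transcript has 2 exons and no stem-loop. It had 18.1 and 19.2 CPM in ORS, against 39.0, 44.3 and 38.0 CPM in HFSC, a log2 fold change of -1.11 (SE 0.13, adjusted p = 2.4e-04). It had 35.7 and 37.7 CPM in basal HB, 0.97 above ORS on the log2 scale (SE 0.13, adjusted p = 8.8e-04), and 36.8 and 28.4 CPM in suprabasal HB. Both calls stayed in all 9 fits that left out 1 library. The testis H2B gene Hist1h2ba was also lower in ORS, at 0.43 and 0.75 CPM, against 2.53, 1.5 and 2.61 CPM in HFSC (3.75-fold, adjusted p = 0.0074).

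Hist2h2be, an H2B gene of the Hist2 cluster with an extended model (chromosome 3, 96221119 to 96223738, plus strand), had the reverse order. It had 12.6 and 8.39 CPM in ORS, against 3.92, 4.69 and 4.32 CPM in HFSC, a log2 fold change of 1.28 (SE 0.28, adjusted p = 0.0070). In basal HB it had 5.16 and 4.13 CPM, -1.17 relative to ORS on the log2 scale (SE 0.31, adjusted p = 0.021), a call that ended without ORS replicate 1 (adjusted p = 0.10), basal HB replicate 1 (0.069) or basal HB replicate 2 (0.14). In suprabasal HB it had 11.6 and 6.23 CPM, with a log2 fold change over basal HB of 0.94 that did not pass (adjusted p = 0.054).

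Of the H2B genes with short models, Hist3h2ba had 6.64 and 6.01 CPM in suprabasal HB, 4.28 and 4.25 in basal HB, 5.57 and 3.82 in ORS, and 2.25, 2.97 and 2.76 in HFSC. It was 1.76-fold higher in ORS (adjusted p = 0.015) and 1.61-fold higher in basal HB (adjusted p = 0.028) than in HFSC, calls that ended without ORS replicate 1 (0.11) and without either basal HB replicate (0.11 without each). Hist1h2bj, whose start lies beside that of Hist1h2ag, shares 70.4% of its words with other members. It was 2.01-fold higher in ORS (adjusted p = 0.028) and 2.39-fold higher in basal HB (adjusted p = 0.0089) than in HFSC. The ORS call ended without ORS replicate 1 (0.17) or HFSC replicate 1 (0.062) and the basal HB call without basal HB replicate 2 (0.090). Hist1h2bb was lower in basal HB, at 0.162 and 0.145 CPM, against 0.335 and 0.411 in ORS and 0.426, 0.439 and 0.384 in HFSC, and was 3.52-fold higher in suprabasal HB (0.428 and 0.674 CPM) than in basal HB (adjusted p = 0.011). The basal HB call against HFSC (adjusted p = 0.015) ended without basal HB replicate 1 (0.084) or 2 (0.093). The call of suprabasal HB over basal HB ended without basal HB replicate 1 (0.079) or 2 (0.081) or suprabasal HB replicate 2 (0.089). The call against ORS (adjusted p = 0.040) ended in 8 of 9 fits with 1 library left out, with adjusted p of up to 0.20 (without ORS replicate 2). The pseudogene Hist3h2bb-ps passed the test in none of the 4 comparisons, at 0.10 and 0.167 CPM in suprabasal HB and at most 0.217 in any other library.

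Of the 12 H3 members, 4 (33.3%) were higher in ORS and 5 (41.7%) in basal HB than in HFSC by edgeR. Of all genes tested 18.1% and 22.8% were higher. The 12 hold near-identical groups of 4 and 3 genes, whose copies share reads and count separately in these shares. None of the 12 was lower in either (23.8% and 26.1% of all genes), also at an unadjusted p under 0.05. As a sum the H3 members stood at 10.8 and 17.3 CPM in suprabasal HB, 14.2 and 11.1 in basal HB, 14.8 and 12.1 in ORS, and 2.82, 3.83 and 4.0 in HFSC, where all 3 libraries were under every other. Hist1h3c (chromosome 13, 23744973 to 23745602, minus strand) had 2.42 and 2.10 CPM in ORS and 1.17 and 1.57 in basal HB, against 0.160, 0.411 and 0.417 CPM in HFSC, which are 4.41 to 11.5 expected counts. It was 7.21-fold higher in ORS (log2 SE 0.38, adjusted p = 5.4e-04) and 4.35-fold higher in basal HB (log2 SE 0.38, adjusted p = 0.0019) than in HFSC, and both calls stayed in all 9 fits with 1 library left out.

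Hist1h3h and Hist1h3i, the H3 members of highest mean TPM, share 87.1% of their words and were read with Hist1h3b and Hist1h3g as a sum. That sum had 3.84 and 7.33 CPM in suprabasal HB, 4.76 and 3.87 in basal HB, 5.46 and 5.16 in ORS, and 1.15, 1.71 and 1.07 in HFSC. It was 4.02-fold higher in ORS (adjusted p = 0.0012) and 3.27-fold higher in basal HB (adjusted p = 0.0020) than in HFSC. In the Hist2 cluster, Hist2h3c2 had 2.70 and 2.34 CPM in basal HB, against 0.80 and 0.92 CPM in ORS and 0.57, 0.50 and 0.66 CPM in HFSC, and was 2.91-fold above ORS (adjusted p = 0.0031) and 4.35-fold above HFSC (adjusted p = 2.5e-04). Summed with its near copies Hist2h3b and Hist2h3c1, the difference of basal HB over ORS was 1.27-fold and did not pass (adjusted p = 0.56), while basal HB stayed 5.79-fold above HFSC (adjusted p = 7.0e-04) and ORS 4.54-fold above HFSC (adjusted p = 0.0021).

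Among the H4 genes, Hist1h4m and Hist1h4n exchanged places between populations. Hist1h4n was at 0 in HFSC and at 2.52 and 2.2 CPM in ORS and 2.63 and 2.57 in basal HB, at least 20.2-fold and 22.2-fold higher. Hist1h4m was at 0.0955 and 0 CPM in ORS and 0.0909 and 0.190 in basal HB, against 1.10, 1.43 and 1.79 CPM in HFSC (33.8-fold and 10.05-fold lower, adjusted p = 0.0034 and 0.0096). Without basal HB replicate 1 the last call ended (adjusted p = 0.092). The pair shares 93.4% of the words of Hist1h4m, and their sum had 2.62 and 2.2 CPM in ORS and 2.73 and 2.76 in basal HB, against 1.10, 1.43 and 1.79 CPM in HFSC. The sum was 1.68-fold higher in ORS (adjusted p = 0.077, not passed) and 1.91-fold higher in basal HB (adjusted p = 0.031) than in HFSC, so the opposite calls of the copies do not hold for the pair.

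Hist1h4i, which has an extended model and the highest mean TPM of the class, passed in none of the comparisons, at 9.29 and 7.05 CPM in suprabasal HB, 4.95 and 6.07 in basal HB, 7.16 and 6.60 in ORS, and 6.47, 7.47 and 7.31 in HFSC. Hist1h4k was 2.94-fold higher in ORS than in HFSC (adjusted p = 0.032). That call ended without ORS replicate 2, HFSC replicate 1 (0.058), HFSC replicate 3 (0.059) or either basal HB replicate. Of the words of Hist1h4k 90.6% are shared with other members, so its values fall under the uncertainty of shared reads. Hist4h4, alone in its cluster (chromosome 6, 136801553 to 136804415, minus strand) and with an extended model, had 1.72 and 1.41 CPM in suprabasal HB, 2.27 and 2.40 in basal HB, 1.71 and 2.66 in ORS, and 3.06, 3.73 and 4.22 in HFSC. It was called 1.67-fold lower in ORS than in HFSC (adjusted p = 0.048), but 8 of 9 fits with 1 library left out did not keep the call, with adjusted p of up to 0.25, and with DESeq2 size factors adjusted p was 0.051.

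Other genes of the histone supply, from lists chosen with earlier results known, were read beside the members. Of all genes tested, 18.1% were higher and 23.8% lower in ORS against HFSC, and 15.8% and 14.7% in basal HB against ORS. The shares were 22.8% and 26.1% in basal HB against HFSC, and 13.1% and 14.8% in suprabasal HB against basal HB. Of 24 S-phase DNA replication genes, 23 were higher and none lower in ORS than in HFSC by edgeR (23 and 0 at an unadjusted p under 0.05), with a median log2 fold change of 0.82. Rrm1, a subunit of ribonucleotide reductase, averaged 293 ± 6.58 CPM in the ORS libraries, against 179.7 ± 21.2 CPM in the HFSC libraries (SD over 2 and 3 libraries, adjusted p = 0.0014). Pcna, the sliding clamp, averaged 291 ± 28.7 CPM in ORS, against 147 ± 28.5 CPM in HFSC (adjusted p = 0.0014). Mcm6, a helicase subunit, averaged 302 ± 12.6 CPM in ORS, against 196 ± 32.3 CPM in HFSC (adjusted p = 0.0054). All 24 were lower in basal HB than in ORS, with a median of -1.03, and Mcm6 was at 121 ± 0.850 CPM in basal HB. In basal HB against HFSC none was higher, also at an unadjusted p under 0.05, 6 were lower, among them Mcm2, Mcm4 and Mcm6, and the median was -0.14. In the same comparison 16 of 47 short histone models (34.0%) were higher and 2 (4.26%) lower, with a median of 1.02. Of all genes 22.8% were higher and 26.1% lower. Near-identical copies count separately among these models. With such copies summed, 12 of 50 units over all members (24%) were higher, near the 22.9% of all genes, and 1 (2%) was lower, where 26.1% of all genes were. In suprabasal HB against basal HB 22 replication genes were higher and none lower (23 and 0 unadjusted), with a median of 0.67.

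Of 22 histone chaperones, which carry histones to DNA, 18 were higher and 1 lower in ORS than in HFSC (median 0.50). None was higher and 14 were lower in basal HB than in ORS (median -0.51, 1 and 16 at an unadjusted p under 0.05). Of all genes 18.1% were higher and 23.8% lower in the first of these comparisons, and 15.8% and 14.7% in the second. In basal HB against HFSC 4 chaperones were higher and 3 lower (median -0.03), shares under the 22.8% and 26.1% of all genes. In suprabasal HB against basal HB 10 were higher and none lower (median 0.25, 10 and 1 unadjusted), where 13.1% and 14.8% of all genes were. Nap1l1, a chaperone of H2A and H2B, averaged 376 ± 22.5 CPM in basal HB, 565 ± 30.6 CPM in ORS and 327 ± 36.8 CPM in HFSC (SD over 2, 2 and 3 libraries). It was higher in ORS than in HFSC (adjusted p = 0.0014) and lower in basal HB than in ORS (adjusted p = 0.012). Rbbp4, a histone binding subunit of several complexes, and Ssrp1, a subunit of FACT, were 1.33-fold and 1.29-fold higher in ORS than in HFSC (adjusted p = 0.019 and 0.017). Rbbp7 was 1.73-fold lower in basal HB than in HFSC (adjusted p = 2.7e-04), where Anp32e, which removes H2A.Z, was 1.58-fold higher (adjusted p = 0.0016) and Atrx, a partner in H3.3 deposition, 1.24-fold higher (adjusted p = 0.020).

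Of 15 genes of histone mRNA synthesis and 3′ processing, 10 were higher and none lower in ORS than in HFSC (median 0.39; 10 and 0 unadjusted), 1 higher and 6 lower in basal HB than in ORS (median -0.32), and 5 higher and 1 lower both in basal HB against HFSC (median 0.07) and in suprabasal HB against basal HB (median 0.16). Ncbp1, a cap-binding subunit, was 1.53-fold higher in ORS than in HFSC (adjusted p = 0.0020). Cpsf2, a subunit of the cleavage complex, was 1.34-fold higher in basal HB than in ORS (adjusted p = 0.031) and 1.77-fold higher than in HFSC (adjusted p = 4.3e-04). Cstf2, of the cleavage stimulation factor, was 1.59-fold lower in basal HB than in ORS (adjusted p = 9.98e-04) and 1.35-fold higher in suprabasal HB than in basal HB (adjusted p = 0.0095). Upf1, a helicase of mRNA decay, was 1.32-fold lower in basal HB than in ORS (adjusted p = 0.032).

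Most histone genes outside the clusters give mainly polyadenylated mRNA. Of the 11 listed, 6 were higher and 1 lower in ORS than in HFSC (median 0.42), where 18.1% and 23.8% of all genes were. In basal HB against ORS 1 was higher and 5 lower (median -0.32), where 15.8% and 14.7% of all genes were. In basal HB against HFSC 4 were higher and 4 lower (median 0.24), where 22.8% and 26.1% of all genes were. In suprabasal HB against basal HB 6 were higher and none lower (median 0.36, 6 and 0 unadjusted), where 13.1% and 14.8% of all genes were. H2afz, which encodes the variant H2A.Z, had 570 ± 82.2 CPM in suprabasal HB, 300.5 ± 35.5 in basal HB and 555 ± 72.6 in ORS (SD, n = 2 each), and 249 ± 58.1 in HFSC (SD, n = 3). It was 2.23-fold higher in ORS than in HFSC (adjusted p = 0.0016). H3f3b, an H3.3 gene, averaged 705 ± 16.7 CPM in basal HB and 848 ± 76.1 CPM in ORS, against 1166 ± 88.6 CPM in HFSC (SD over 2, 2 and 3 libraries). It was lower than in HFSC in both (adjusted p = 8.9e-04 for basal HB and 0.011 for ORS). The other H3.3 gene, H3f3a, was 1.37-fold higher in basal HB than in HFSC (adjusted p = 0.019), and H1f0, the H1 of resting cells, 1.25-fold lower (adjusted p = 0.029). H2afy, which encodes macroH2A, was 2.90-fold lower in basal HB than in ORS (adjusted p = 1.7e-04), and H2afx 1.52-fold lower (adjusted p = 0.0016).

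**Figure D4:**
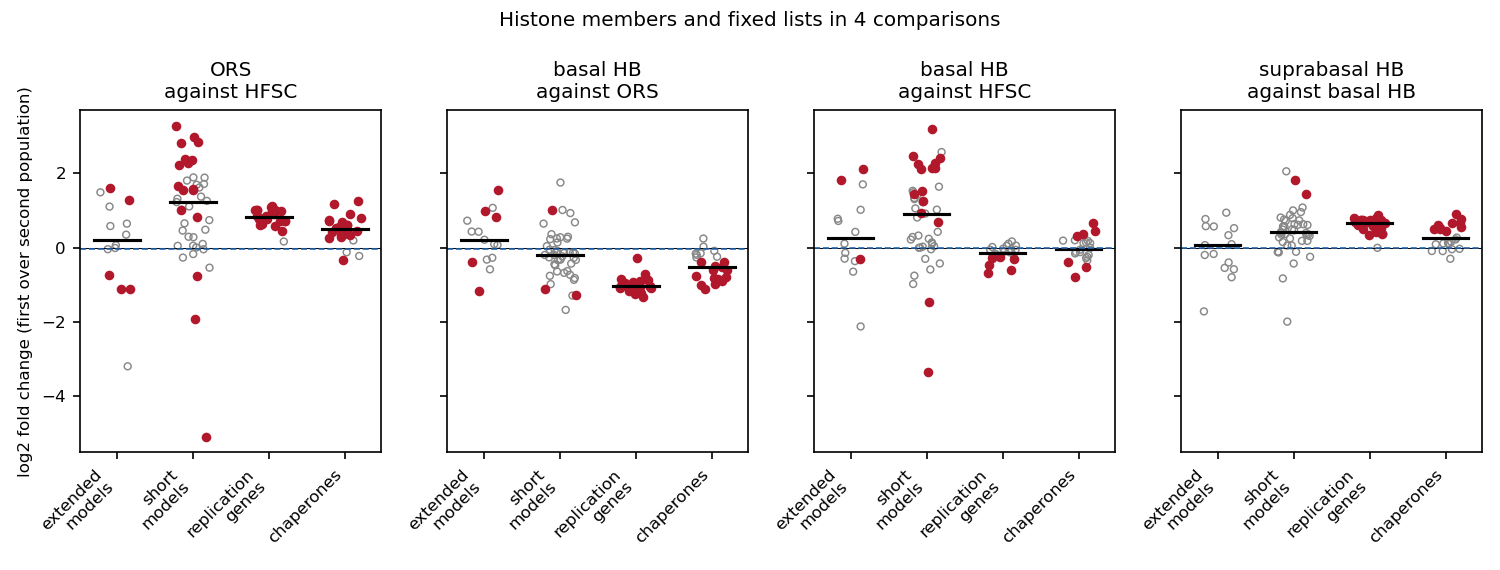
Log2 fold changes (vertical axis, first over second population) in the 4 comparisons of members with extended and short gene models, S-phase replication genes and histone chaperones. Red points passed edgeR's test, open points did not, black lines are medians and the dashed line is the median of all genes. Members with a population at 0 are left out, and near-identical copies are separate points. In basal HB against HFSC many short models lie above 0 while replication genes lie near 0 or below. There 34.0% of the 47 short models tested and 22.8% of all genes were called higher.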

How the data were processed

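RNA was sequenced from 9 sorted libraries of mouse back skin (suprabasal HB 2, basal HB 2, ORS 2, HFSC 3), prepared with a poly(A)-selecting mRNA kit and read as paired ends, per the labels' protocols. Bowtie2 2.2.9, RSEM 1.2.30 and mm10 are named in the submitters' processing notes. The deposited expected counts per gene are estimates by the authors, as are the deposited TPM and the model lengths in bases, and whether counting used strand is not given in the sources used here. The 9 FPKM columns and the 9 columns of the series table were not used. Nothing says that replicates came from separate animals, so p-values measure only the spread between these samples, which may be technical.

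Expected counts were rounded, filtered with filterByExpr and fitted over all 4 populations with edgeR 4.0.16 (TMM, quasi-likelihood test, Benjamini-Hochberg adjustment over 20491 genes, adjusted p under 0.05, 5 residual degrees of freedom), in R 4.3.3, after a test on simulated data. CPM values are normalised by TMM. Levels and features were computed with Python 3.11.15, pandas 2.3.3 and matplotlib 3.10.9 on GENCODE M21 transcripts. A member at 0 in a population was set against a floor of 3 counts per library, 0.109 to 0.133 normalised CPM in HFSC and 0.0335 to 0.0671 in the others, which covers counting error only. DESeq2 1.42.0, limma 3.58.1 on log2 TPM, other scalings and filters, a replicate block, each library left out and, added after the data were seen, near-identical members summed were alternatives. Deviations of same-numbered libraries from their population means correlated weakly (r from -0.105 to 0.121), and the numbers were not taken as pairs. Between populations of 2 libraries r was 0.097, 0.068 and 0.121. Differently numbered libraries there give the same values with opposite sign by construction, so whether samples were paired cannot be read from them.

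Named members were up to 6 called each way per comparison with the largest log2 fold changes, the 3 of highest mean TPM per class, all H1 members tested, all of Hist3 and Hist4, and the 3 called genes of highest mean CPM per list. A few others are named where a summed group or a library turned on them, chosen after their values were seen. The members and lists were chosen with earlier results of these data known.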

Additional observations from a re-analysis of the deposited data

How the results depend on the processing

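For members higher in ORS than in HFSC (21), limma on TPM gave 35 (pseudocount 1) and 32 (pseudocount 0.1). The share of all genes called higher was 29.2% with each, against 18.1% by edgeR. Summing near-identical members gave 13 of 50 units tested (26%), where 18.1% of all genes were higher. For those higher in basal HB than in HFSC (20), limma with pseudocount 1 gave 33 (38.7% of all genes, against 22.8% by edgeR). Summing gave 12 of 50 (24%), near the 22.9% of all genes that were higher. For those lower (3), the filter of 1 CPM and summing gave 1 each (2.38% and 2%), where 30.2% and 26.1% of all genes were lower. In basal HB against ORS, summing gave 3 higher (of 5) and 3 lower (of 5), 6% of 50 units each. There 15.9% of all genes were higher and 14.7% lower. The 5 lower also became 3 with DESeq2 size factors, upper-quartile scaling, the filter of 1 CPM or limma with either pseudocount. They became 2 with no filter, the replicate block or the DESeq2 Wald test, and 1 with only these populations fitted. Over these settings 8.02% to 18.7% of all genes were lower. In suprabasal HB against basal HB the filter of 1 CPM gave 1 higher (of 3), where 15.7% of all genes were higher. None lower became 1 with no filter, that filter or the Wald test, and 3 and 4 with limma on TPM at pseudocounts 1 and 0.1. Over those settings 9.59% to 20.8% of all genes were lower. With 1 library left out, the counts ranged over 14 to 21 higher and 4 to 5 lower in ORS against HFSC, 2 to 5 and 0 to 3 in basal HB against ORS, 11 to 22 and 0 to 3 in basal HB against HFSC, and 0 to 4 and 0 to 2 in suprabasal HB against basal HB. The share of all genes called also changed with the library left out. Leaving out an ORS, basal HB or suprabasal HB library leaves 1 in that population. These ranges alone do not set the members apart from all genes. The replicate block left 17 higher and 4 lower, 5 and 2, 17 and 2, and 2 and 0 in those comparisons. With the block 15.2%, 15.3%, 20.2% and 11.6% of all genes were higher and 20.8%, 13.4%, 23.6% and 13.8% lower. Whether the replicate numbers pair the samples is not known. The log2 ratio of the sum over all members was -0.31, 0.32, 0.01 and 0.01 in that order, 0.14, 0.0907, 0.23 and 0.21 without Hist1h1c, and 0.36, 0.66 and -0.11 as a sum of TPM in ORS against HFSC, basal HB against HFSC and suprabasal HB against basal HB. Its ranges with 1 library left out were -0.40 to -0.20, 0.24 to 0.41, -0.06 to 0.12 and -0.0660 to 0.0830. For Hist3h2a in basal HB against HFSC, limma on TPM reversed the sign, to 0.0735 and 0.0780 at pseudocounts 1 and 0.1. The cause was not tested. Of the other values of named results under alternatives, 702 kept direction and side of the threshold and 165 kept direction but not the threshold. Depth limits members near 3 counts, most of all in HFSC.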
